A study of Mus musculus and Ochotona curzoniae and Rattus norvegicus with 18 samples.

Results

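The proteasome subunit genes were taken as every gene whose symbol matches PSMA to PSMG followed by a number, and that occurred once in the pika tables and once among the upper-cased mouse symbols. The pattern met 48 pika symbols and 54 mouse symbols, and 48 genes were joined, of 14418 joined genes in all. One of them, PSMC3IP, is a partner of meiotic recombination and no proteasome subunit, which left 47 proteasome genes. Cultured fibroblasts of Tibetan pika (Ochotona curzoniae, no strain given) were compared with fibroblasts of the C57BL/6J mouse, 3 RNA-seq libraries of each. Epidermis is the tissue label of both, and both were grown in DMEM with 10% FBS at 37 degrees C and 5% CO2 and lysed at 90% confluency, with no treatment given. The labels do not say whether the 3 libraries of a species were separate animals or separate cultures, so p-values reflect no more than the spread among these libraries, and that may be technical. Rat and rabbit fibroblasts were also sequenced, but their identifiers could not be paired with symbols from the tables used here, and they are not analysed here.

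The proteasome degrades proteins that carry ubiquitin chains. Its 20S core is a barrel of 4 stacked rings, the outer ones of alpha subunits (PSMA) and the inner ones of beta subunits (PSMB), 3 of which (PSMB5, PSMB6 and PSMB7) carry the cutting sites. A 19S cap sits on the core: its base holds 6 ATPases (PSMC) that unfold the substrate and pull it in, and its lid (most PSMD subunits) removes the ubiquitin. Interferon induces PSMB8, PSMB9 and PSMB10, which replace the constitutive cutting subunits and form the immunoproteasome. Since one particle uses its subunits in fixed proportions, the genes are known for being expressed together, and the factor NFE2L1 raises them together through antioxidant response elements in their promoters.

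The library totals behind the FPKM values were 7703576 to 8481030 reads in pika and 3663102 to 5758950 in mouse. The 10 most abundant rows took 4.31% to 4.32% of the FPKM in pika and 39.1% to 41.0% in mouse, and the joined genes held 87.1% of the pika FPKM and 37.0% to 38.3% of the mouse FPKM. Values below are therefore rescaled FPKM: the deposited values after each library was scaled so that its joined genes sum to 1000000. Summed over 12 fibroblast markers the level was 11389 to 11778 in pika and 14817 to 15160 in mouse, and COL1A1 and VIM were high in both, while 5 of the 12 were called lower in pika (among them COL3A1 and PDGFRA) and 2 higher. Over 10 keratinocyte markers the sum was 63.5 to 77.5 in pika and 58.5 to 68.4 in mouse, of which 6 in pika and 1 in mouse were at 0, and most of the sum was PERP in pika (mean 70.4) and DSP in mouse (45.2). KRT5 and KRT14, the keratins of basal keratinocytes, were at 0 in pika and near 0 in mouse, and KRT10 was at 0 in pika and at 4.41 to 5.48 in mouse, from 14 reads. Endothelial markers (6 genes) summed to 0.71 to 1.60 in pika and 32.3 to 39.3 in mouse. Nearly all of the mouse sum was TEK (mean 31.4), and PECAM1, CDH5, EMCN, KDR and VWF had mouse means of 0.30 to 1.23. Melanocyte markers (5 genes) summed to 68.1 to 78.5 in pika and 54.8 to 58.3 in mouse. Most of that was MITF (means 40.2 and 50.5) and, in pika, PMEL (31.6, against 4.97 in mouse), with TYR, DCT and SOX10 at means of 0 to 0.63. The part of such cells in the results below was not tested. In bulk RNA, fewer cells of a type and less RNA per cell cannot be told apart.

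The promoters give the regulatory context of these genes. A window from 250 bases before to 50 bases after the start was given for 39 of the 47 proteasome genes in the RefSeq mouse table (build GRCm38.p6), and it was searched on both strands for 6 short motifs. The antioxidant response element core TGACNNNGC was found in 6 of the 39 genes (15.4%), against 17.3% of 8235 tested genes with a window. The ETS motif CCGGAAG was found in 13 of 39 (33.3%), against 20.1%. The CCAAT motif was found in 14 (35.9%), against 42.6%, and the interferon response motif GAAANNGAA in 7 (17.9%), against 8.21%. The AP-1 motif TGANTCA was found in 2 (5.13%), against 6.12%, and the cyclic AMP motif TGACGTCA in 0, against 3.62%. Over all 27025 genes with a window the shares were 13.99%, 9.93%, 41.1%, 9.76%, 8.97% and 2.03% in the same order. The ETS motif was held by 4 of 15 proteasome genes that were called higher below and by 9 of 23 that were not. The interferon response motif was held by 5 of 15 and 2 of 23, the antioxidant response element core by 3 of 15 and 3 of 23, and the CCAAT motif by 5 of 15 and 8 of 23. The called holders of the interferon response motif were Psmb3, Psmc2, Psmd9, Psme1 and Psmg4, and the others were Psmb4 and Psmd4. Among these holders only Psme1 belongs to the genes described here as induced by interferon. Some letters can belong to matches of 2 motifs, and all of these are matches of letters, not sites of binding. The sequences below are shown because they carry a motif close upstream of 5 subunits that are compared later: Psmb5 and Psmb6 encode cutting subunits that lay on opposite sides of 0 in the comparison, Psmd11 and Psmd12 encode cap subunits that were called higher, and Psmc1 the one with the lowest fold change. They are written 5′ to 3′ on the strand of the gene, with the motif, or its reverse complement CTTCCGG for ETS, in capitals.
Psmb5 (chr14:54617996-54618082, minus strand, antioxidant response element core from 47 to 39 bases before the start): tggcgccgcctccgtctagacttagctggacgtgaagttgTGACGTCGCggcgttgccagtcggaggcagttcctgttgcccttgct
Psmb6 (chr11:70525308-70525356, plus strand, antioxidant response element core from 9 to 1 bases before the start): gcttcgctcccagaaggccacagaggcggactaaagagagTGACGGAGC
Psmd12 (chr11:107479471-107479527, plus strand, ETS motif from 17 to 11 bases before the start): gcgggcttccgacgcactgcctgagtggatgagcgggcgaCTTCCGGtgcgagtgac
Psmd11 (chr11:80428564-80428614, plus strand, ETS motif from 11 to 5 bases before the start): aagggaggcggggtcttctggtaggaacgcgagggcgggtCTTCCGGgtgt
Psmc1 (chr12:100110134-100110201, plus strand, ETS motif from 28 to 22 bases before the start): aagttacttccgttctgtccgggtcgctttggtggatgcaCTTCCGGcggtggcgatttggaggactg

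Of the 47 proteasome genes, 45 passed the filter on low values, a mean deposited FPKM of at least 1 in at least 1 species. The other two were PSMA8, an alpha subunit of the testis, with means of 0.62 in pika and 0.44 in mouse, and PSMB11, the beta subunit of the thymus, which was at 0 in all 3 pika libraries. Differences were tested with limma over all 10348 genes that passed, on log2(rescaled FPKM + 1), and a call required an adjusted p under 0.05 together with an absolute log2 fold change of at least 1. In pika, 17 of the 45 proteasome genes were called higher, 0 were called lower and 28 were not called. Over all tested genes 52.2% were called, 28.7% higher and 23.5% lower, so the 37.8% called higher among the proteasome genes stood above the background of 28.7% and the 0 called lower stood beside 23.5%. The median log2 fold change was 0.79 over the proteasome genes and 0.21 over all tested genes, and single values ran from -0.72 (PSMC1) to 2.43 (PSMD9). A limma adjusted p under 0.05 was reached by 39 of the 45, 33 with a positive and 6 with a negative fold change, against 88.6% of all tested genes. The 3 pika libraries lay wholly above the 3 mouse libraries for 33 genes, wholly below them for 7, and overlapped them for 5. The matching shares of all tested genes are not given here, so these counts cannot be read as a trait of the family. Without rescaling all 45 fold changes were positive, the lowest at 0.57 (PSMC1), so the negative values given below hold only relative to the joined genes.

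**Figure D1:**
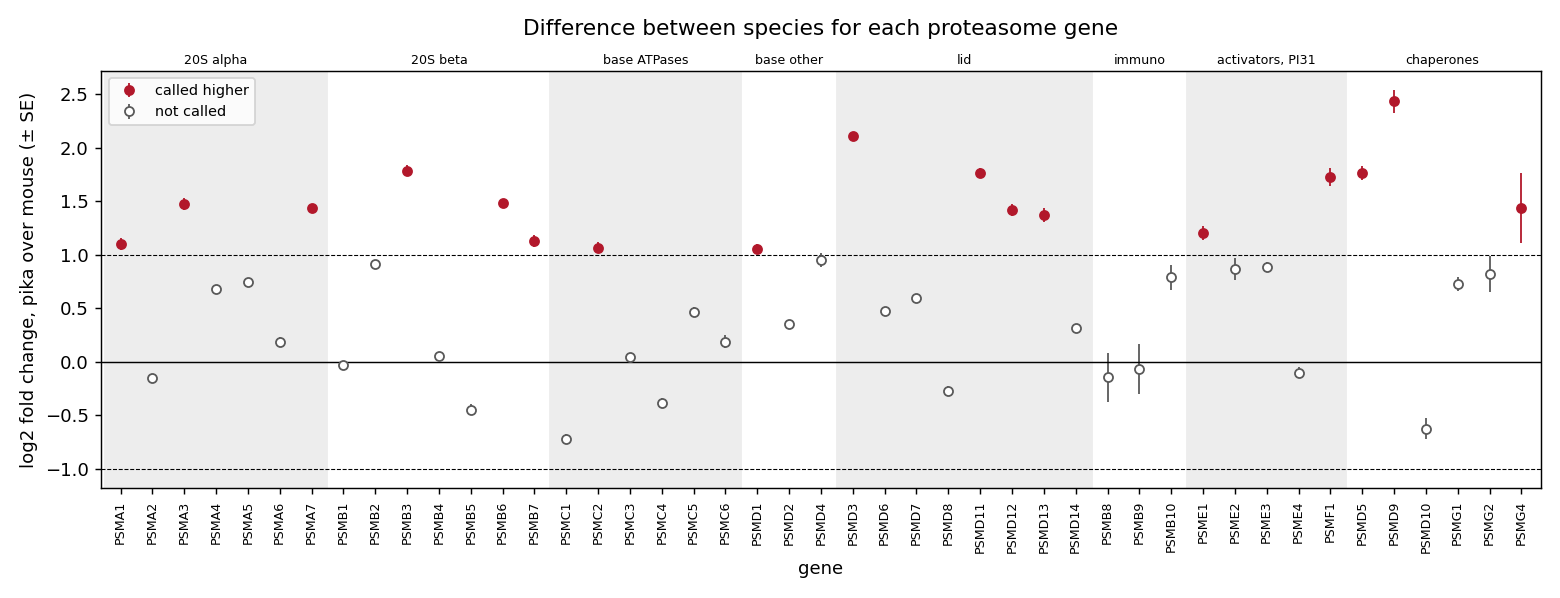
Log2 fold change of the 45 tested proteasome genes, pika over mouse (y axis), by subunit group (x axis); points are limma estimates with SE over 3 libraries a species, filled where called higher, and dashed lines mark a log2 fold change of 1 and -1. The 17 called genes lie between 1.05 and 2.43, all on the pika side, and the lowest value is -0.72 (PSMC1).

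Summed over the 47 genes, the level was 11353, 11291 and 11379 rescaled FPKM in the pika libraries and 7495, 7510 and 7497 in the mouse libraries. The mean was 11341 ± 45.4 in pika and 7501 ± 8.30 in mouse (SD, n = 3 each), 1.51-fold higher in pika with no overlap. The exact two-sided permutation test gave p = 0.10, the smallest that 3 against 3 libraries can give. The excess kept its direction under each scale tried, with a log2 difference of 0.60 as reported, 0.42 once scaled by median of ratios and 1.89 without rescaling. The scale moves all genes as well: the median log2 fold change of all tested genes was 0.04 under that scaling and 1.29 if unscaled. Relative to that median, the median proteasome gene stood 0.58 higher as reported, 0.57 by median of ratios and 0.72 unscaled.

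Among the alpha subunits of the core, which form the gate of the barrel, 3 of 7 tested genes were called higher. Over all tested genes 28.7% were. PSMA3 stood at 422.9, 447.0 and 432.2 rescaled FPKM in pika and at 158.0, 143.5 and 165.7 in mouse. Its log2 fold change was 1.47 ± 0.054 (SE), with a limma adjusted p of 5.9e-09. PSMA7 stood at 343.4, 338.5 and 345.4 in pika against 124.4, 128.7 and 124.3 in mouse, which gave a log2 fold change of 1.44 ± 0.035 (limma adjusted p = 4.82e-10). In both genes every pika library lay far above every mouse library on this scale; on reads not divided by length neither was called, at 0.52 for PSMA3 and 0.79 for PSMA7. PSMA1 had the smallest fold change of the called alpha subunits, 1.10 ± 0.054 (limma adjusted p = 4.74e-08), with means of 258.2 ± 9.36 and 119.9 ± 7.97 (SD, n = 3), and it was not called on reads (0.45) or with median-of-ratios scaling (0.93). PSMA4, PSMA5 and PSMA6 had log2 fold changes of 0.68, 0.74 and 0.18 and were not called. PSMA2 had a negative value: 411.0, 403.1 and 408.7 in pika lay just below 430.5, 461.6 and 464.4 in mouse, for a log2 fold change of -0.15 that was not called. It was 0.89 on reads not divided by length and 1.14, called higher, without rescaling. The alpha ring, one of each subunit, was thus read at 258 to 434 in pika and 120 to 452 in mouse.

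In the constitutive beta subunits, 3 of 7 were called higher, beside 28.7% of all tested genes, and the 3 cutting subunits did not move together. PSMB6, which cuts after acidic residues, stood at 460.6, 457.5 and 469.0 in pika and at 161.3, 167.1 and 167.3 in mouse, which gave a log2 fold change of 1.48 ± 0.033 (limma adjusted p = 2.97e-10). PSMB7, which cuts after basic residues, stood at 322.8, 304.6 and 322.5 in pika and at 136.0, 157.4 and 141.1 in mouse, for a log2 fold change of 1.13 ± 0.057 (limma adjusted p = 5.63e-08). PSMB7 was not called on reads (0.40) or with median-of-ratios scaling (0.95). PSMB5, which cuts after hydrophobic residues and is the main target of bortezomib, stood at 249.7, 271.0 and 265.6 in pika, below the 338.2, 352.4 and 382.5 in mouse. Its log2 fold change of -0.45 ± 0.052 was not called, although its limma adjusted p was 2.42e-05. It was 0.84 without rescaling and -0.19 on reads, with a pika model of 504 bases. So on FPKM the cutting subunits ran PSMB6, PSMB7, PSMB5 from high to low in pika and PSMB5, PSMB6, PSMB7 in mouse, with no overlap between neighbours in pika and none in mouse. The mouse order depended on model length (871 bases for PSMB5, 1872 for PSMB6 and 3421 for PSMB7). In mouse reads PSMB7 was first with 1307, before PSMB5 (829) and PSMB6 (823). The promoters of Psmb5 and Psmb6 printed above both hold an antioxidant response element core. PSMB3, a structural subunit, had the largest fold change of the ring, 1.79 ± 0.055 (limma adjusted p = 1.96e-09), at 469.0, 436.0 and 421.6 in pika against 136.2, 121.5 and 125.1 in mouse. PSMB1 was the most abundant of all subunits in both species, with means of 472.6 ± 10.9 in pika and 481.6 ± 19.4 in mouse (SD, n = 3), and its libraries overlapped. PSMB2 and PSMB4 had log2 fold changes of 0.91 and 0.06 and were not called.

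**Figure D2:**
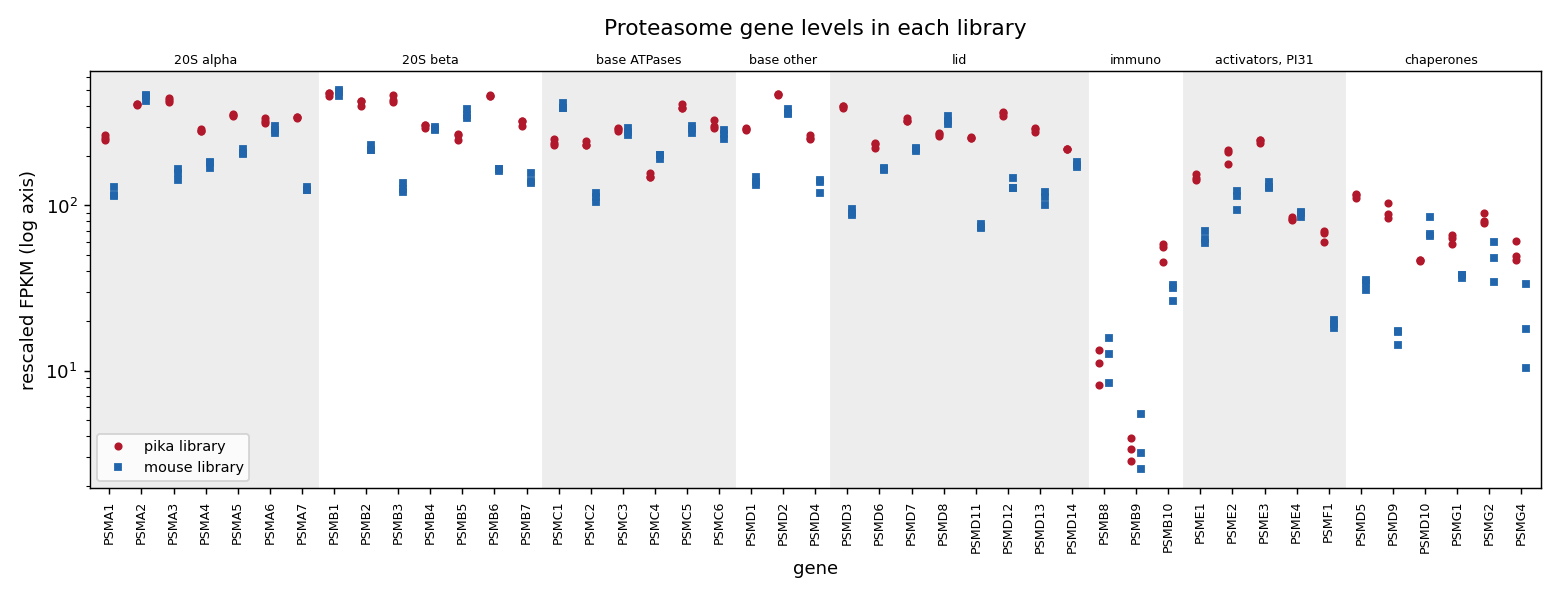
Rescaled FPKM (y axis, log scale) of the 45 tested proteasome genes (x axis, by subunit group); circles are the 3 pika and squares the 3 mouse libraries. PSMB8 and PSMB9 are the lowest genes, at 2.55 to 15.8 in every library, and the core, base and lid genes of pika lie in a narrower band than those of mouse.

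Among the 6 ATPases of the base only PSMC2 was called, where 28.7% of all tested genes were called higher. PSMC2 stood at 231.8, 244.4 and 231.9 in pika against 118.9, 105.3 and 112.7 in mouse. Its log2 fold change was 1.07 ± 0.052 (limma adjusted p = 4.46e-08). The gene model worked out from the FPKM spanned 497 bases in pika and 5031 in mouse, and on reads not divided by length PSMC2 was called lower in pika, at a log2 fold change of -1.21 (limma adjusted p = 6.18e-11). Where all reads of a gene share a divisor, its reads and its length both come out too low, so this length and the value of -1.21 are uncertain; with median-of-ratios scaling PSMC2 was not called (0.89). PSMC1 had the lowest fold change of all tested proteasome genes, -0.72 ± 0.047, from 252.8, 231.5 and 238.0 in pika and 386.8, 387.2 and 419.3 in mouse. Its groups did not overlap and its limma adjusted p was 3.26e-07, but it stayed short of the fold required for a call. PSMC1 had models of nearly equal length, 1529 bases in pika and 1518 in mouse, and its value turned to 0.33 on reads not divided by length and to 0.57 without rescaling. PSMC4 was below mouse as well, at 151.9 ± 4.18 against 198.1 ± 6.97 (SD, n = 3), and was the least abundant of the core, base and lid subunits in pika. Its log2 fold change of -0.38 was 0.04 on reads and 0.90 without rescaling. PSMC3, PSMC5 and PSMC6 had log2 fold changes of 0.04, 0.46 and 0.19. The median over the 6 ATPases was 0.12 against 0.21 over all tested genes, but 0.31 against 0.04 on reads not divided by length and 1.39 against 1.29 without rescaling.

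Of the other base subunits, PSMD1, the large scaffold, was called higher at 285.6, 293.9 and 291.5 in pika against 133.4, 147.9 and 137.9 in mouse, for a log2 fold change of 1.05 ± 0.045 (limma adjusted p = 1.79e-08), and was not called on reads (0.84) or with median-of-ratios scaling (0.88). PSMD2, the other large scaffold, averaged 470.5 ± 3.36 in pika and 368.4 ± 12.2 in mouse (SD, n = 3), which gave a log2 fold change of 0.35. On this scale PSMD2 stood well above PSMD1, its partner in the base, in mouse, and in pika the gap between them was smaller. Their models were 4038 (PSMD2) and 7265 bases (PSMD1) in mouse, and 3123 and 3040 in pika. In reads PSMD2 had 3979 and PSMD1 2687 in mouse, and 16550 and 9939 in pika, so the smaller gap in pika was not seen there. PSMD4, a ubiquitin receptor, had a log2 fold change of 0.95 ± 0.066, just short of the call, and reached 1.00 without the second mouse library.

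The lid held 4 called genes of 8, where 28.7% of all tested genes were called higher. PSMD3 had the largest fold change of all core, base and lid subunits: it stood at 398.7, 397.4 and 390.7 in pika and at 90.6, 87.7 and 94.7 in mouse, for a log2 fold change of 2.11 ± 0.040 (limma adjusted p = 1.22e-10). PSMD11, whose abundance is known to favour assembly of the full particle, stood at 257.8, 255.4 and 260.1 against 74.5, 73.3 and 77.7, which gave a log2 fold change of 1.77 ± 0.041 (limma adjusted p = 3.81e-10), and a value of 0.91 on reads, short of a call. In both genes the pika libraries lay far above the mouse libraries, and these were the 2 least abundant subunits of the mouse particle. PSMD12 stood at 366.9, 347.4 and 360.4 against 127.0, 128.4 and 146.7, for a log2 fold change of 1.41 ± 0.057 (limma adjusted p = 1.23e-08). PSMD13 stood at 291.7, 277.7 and 296.0 against 112.6, 100.8 and 120.3, which gave a log2 fold change of 1.37 ± 0.064 (limma adjusted p = 3.09e-08). The promoters of both Psmd11 and Psmd12 hold an ETS motif, as does that of Psmc1, which had the lowest fold change. PSMD14, the enzyme of the lid that removes ubiquitin chains, differed little: it stood at 220.5, 218.3 and 219.7 in pika and at 183.1, 171.5 and 174.7 in mouse, for a log2 fold change of 0.31. PSMD6 and PSMD7 had log2 fold changes of 0.47 and 0.59, and PSMD8 one of -0.28; none of these 3 was called.

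In proportion to each other, the subunits were more even in pika than in mouse on rescaled FPKM. Over the 31 core, base and lid subunits, the most abundant exceeded the least abundant by 3.19, 2.98 and 3.22 times in the pika libraries and by 6.19, 6.81 and 6.24 times in the mouse libraries. Of the 31, 30, 31 and 30 lay within 2-fold of their library's median in pika, and 25, 25 and 26 in mouse. The SD of log2 levels was 0.384 ± 0.0082 in pika and 0.707 ± 0.0081 in mouse (SD, n = 3), with no overlap (exact two-sided permutation p = 0.10, the smallest possible). The median subunit had 309.9 ± 11 in pika and 178.8 ± 6.40 in mouse, while the most abundant was alike at 474.9 ± 6.93 and 481.6 ± 19.4. The order of the subunits was only weakly shared: across the 31 mean log2 levels Pearson's r was 0.18 and Spearman's rho 0.21, a description over genes of the same libraries. By mean level PSMB1 was first in both species, but PSMD3 was 9th of 31 in pika and 30th in mouse, and PSMC1 was 27th and 3rd. In reads not divided by length, summed over the libraries, the 31 ran from 1320 (PSMC2) to 16550 (PSMD2) in pika. In mouse these reads ran from 498 (PSMD4) to 3979 (PSMD2). The pika minimum carries the doubt given for PSMC2. The greater evenness in pika thus holds for FPKM and was not shown on reads.

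The spread in mouse went with gene model length. FPKM is already divided by that length, so the level and the length below share a term. Across the 31 subunits the log2 level and the log2 model length gave a Pearson's r of -0.68 in mouse (Spearman's rho -0.65) and of -0.03 in pika (rho -0.16), where models ran from 871 to 7265 bases in mouse and from 497 to 3123 in pika. The 2 least abundant mouse subunits, PSMD11 and PSMD3, had models of 6383 and 4967 bases there and of 1705 and 1835 in pika. For the 5 subunits whose models were nearly equal (PSMA2, PSMC1, PSMC5, PSMC6 and PSMD4), the highest over the lowest mean was 1.69 in pika and 3.39 in mouse. The part of model length in the difference between the species' spreads was not tested.

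**Figure D3:**
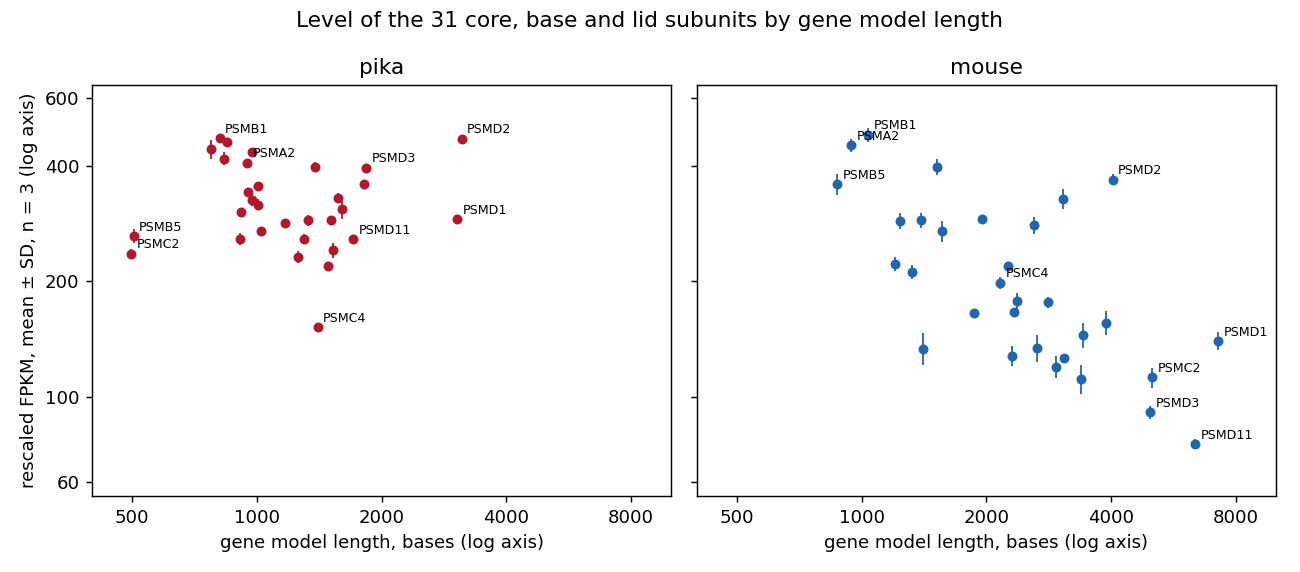
Rescaled FPKM (mean ± SD of 3 libraries, log axis) against gene model length in bases (log axis) of the 31 core, base and lid subunits, pika left and mouse right. The mouse points fall with length (r = -0.68) and the pika points do not (r = -0.03).

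Fold changes between species went with model length too, and the part of length in them was not tested beyond the values that follow. The mouse model was longer than the pika model by a median of 1.9 times for the tested proteasome genes and 2.26 times for all tested genes with both lengths. Of the 22 proteasome genes with a mouse model at least 2-fold longer, 15 were called higher, against 34.4% of all tested genes in that class. Of the 8 with nearly equal models (a ratio from 0.8 to its inverse), 0 were called, where 15.6% of all tested genes in that class were called higher and 30.9% lower. Of the 15 in between, PSMD12 and PSMG4 were called. The 8 with nearly equal models split evenly: PSMC5, PSMC6, PSMD4 and PSME3 were positive and PSMA2, PSMC1, PSMD10 and PSME4 negative, with a median log2 fold change of 0.04 against -0.30 for all genes of the class. That split also held with median-of-ratios scaling, with the same genes on each side, a median of -0.13 and 0 called. It did not hold on the other scales. On reads not divided by length all 8 were positive, with a median of 1.08 and 4 called higher. Over all tested genes the median on reads was 0.04, and 25.5% were called higher. Without rescaling the median of the 8 was 1.31 and 6 were called higher, beside 1.29 and 58.3% over all tested genes. The fit on reads scales each library to its joined reads, not its joined FPKM, so values move even where models are equal. Across the 45 genes, log2 fold change and log2 length ratio gave a Pearson's r of 0.54 (Spearman's rho 0.56), and r was 0.19 over all tested genes. On reads not divided by length r was -0.52 (rho -0.44) for the 45 genes and -0.30 for all. The FPKM and the reads fold change of a gene differ mainly by its length ratio and the scale. Their r values with that ratio are therefore not independent.

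Without the division by gene length the family still stood higher in pika, but partly with other members called. On those reads 16 of the 45 were called higher and 1 (PSMC2) lower, where 25.5% of all tested genes were called higher and 27.2% lower. The median log2 fold change was 0.79, against 0.04 over all genes. The calls shared with the FPKM fit were 7: PSMB3, PSMB6, PSMD3, PSMD12, PSMD13, PSME1 and PSMG4, and these were also called with median-of-ratios scaling. The 9 called only on reads were PSMA5, PSMB2, PSMC5, PSMC6, PSMD2, PSMD4, PSMD7, PSME3 and PSMG2. The 10 called only with FPKM were PSMA1, PSMA3, PSMA7, PSMB7, PSMC2, PSMD1, PSMD5, PSMD9, PSMD11 and PSMF1. Per 1000000 joined reads, proteasome genes took 8002, 8005 and 8043 reads in pika and 4560, 4520 and 4509 in mouse.

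**Figure D4:**
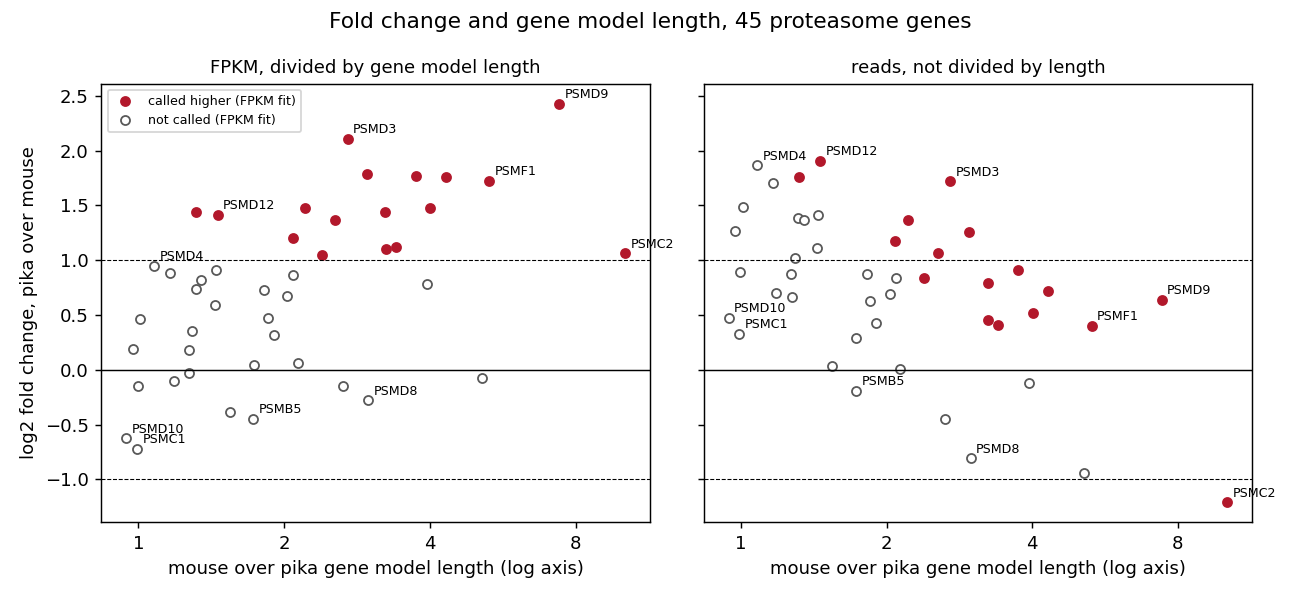
Log2 fold change, pika over mouse, against the ratio of mouse to pika gene model length (log axis) for the 45 tested proteasome genes, from FPKM (left) and from reads not divided by length (right); filled points were called higher in the FPKM fit. The points rise with the ratio on the left (r = 0.54) and fall on the right (r = -0.52), and PSMC2, with the largest ratio, moves from 1.07 to -1.21.

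The immunoproteasome subunits were low in both species and none of the 3 tested was called. PSMB8, which replaces PSMB5, stood at 8.22, 11.1 and 13.3 in pika and at 12.6, 8.47 and 15.8 in mouse. PSMB9, which replaces PSMB6, stood at 3.34, 3.91 and 2.85 in pika against 2.55, 3.17 and 5.45 in mouse, from 27 pika and 36 mouse reads in all. Both genes overlapped between species, with log2 fold changes of -0.15 ± 0.23 and -0.07 ± 0.23 (limma adjusted p = 0.56 and 0.78). On reads not divided by length the values were -0.45 for PSMB8 and -0.94 for PSMB9 (limma adjusted p = 0.058 and 0.0010), neither called. PSMB10, which replaces PSMB7, was the most abundant of the 3: it stood at 55.9, 58.3 and 45.4 in pika, all above the 26.2, 33.1 and 31.8 in mouse, which gave a log2 fold change of 0.79 ± 0.12 that missed the fold for a call. On reads not divided by length the value of PSMB10 was -0.12, with a pika model of only 432 bases, so it carries the same doubt as that of PSMC2.

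Relative to the constitutive partner, PSMB8 amounted to 4.13 ± 0.86% of PSMB5 in pika and 3.42 ± 0.90% in mouse (SD, n = 3), with overlapping libraries. PSMB9 amounted to 0.725%, 0.856% and 0.608% of PSMB6 in pika and to 1.58%, 1.89% and 3.25% in mouse, lower in each pika library. PSMB10 amounted to 17.3%, 19.1% and 14.1% of PSMB7 in pika and to 19.3%, 21.0% and 22.5% in mouse. The log2 ratios, taken on value + 1, differed by 0.30 (PSMB8 to PSMB5), -1.55 (PSMB9 to PSMB6) and -0.34 (PSMB10 to PSMB7), with exact two-sided permutation p-values of 0.40, 0.10 and 0.10. Adjusted over the 3 ratios these were 0.40, 0.15 and 0.15, and no ratio could pass at this size. PSMB6 and PSMB7 were themselves called higher in pika, so 2 of the 3 ratios carry that difference in their denominator. Leukocytes express these subunits strongly, and 8 leukocyte and macrophage markers summed to 4.97 to 6.43 in pika and 23.3 to 37.9 in mouse. The mouse sum came mostly from CD68 (8.90 to 21.1) and CSF1R (11.07 to 14.05), both of macrophages and both called lower in pika, with ITGAM at 1.54 to 2.6. PTPRC, the common leukocyte antigen, was at 0 in pika and at 0.10 to 0.16 in mouse, and 4 markers in pika and 1 in mouse were at 0 in all libraries. The part of such cells in the ratios was not tested.

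**Figure D5:**
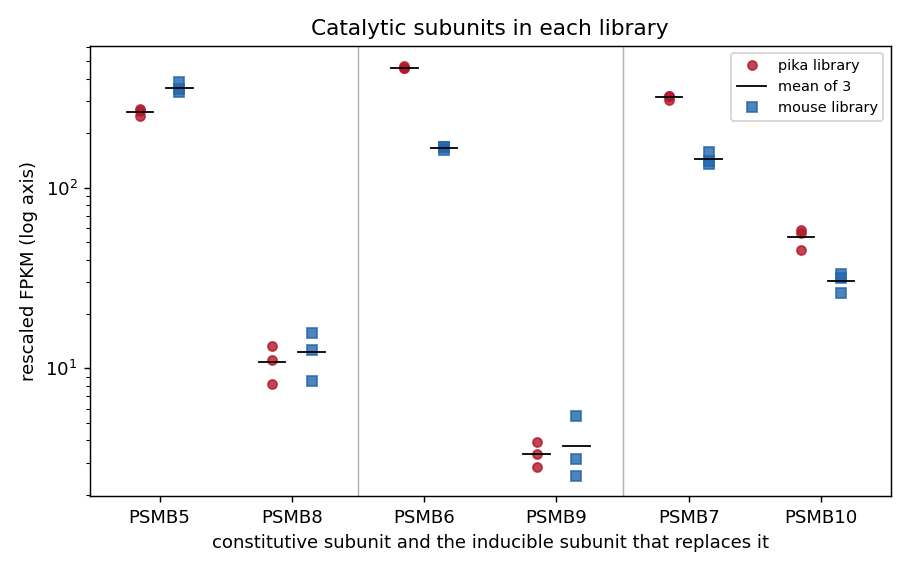
Rescaled FPKM (y axis, log scale) of the 3 constitutive cutting subunits and the inducible subunit that replaces each (x axis); circles are pika and squares mouse libraries, and black lines are means of 3. In each pair the inducible subunit lies below its partner in every library, and PSMB10 comes closest, at 14.1% to 22.5% of PSMB7.

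Among the activators, which cap the core in place of the 19S particle, 1 of 4 was called, and the inhibitor PSMF1 (PI31) was called too. Over all tested genes 28.7% were called higher. PSME1, the alpha chain of the interferon-induced PA28 ring, stood at 143.0, 146.5 and 155.2 in pika and at 59.5, 62.3 and 70.2 in mouse, for a log2 fold change of 1.2 ± 0.068 (limma adjusted p = 1.247e-07). PSME2, the beta chain of the same ring, stood at 216.4, 178.4 and 210.6 in pika against 94.1, 114.9 and 122.4 in mouse, which gave a log2 fold change of 0.87 ± 0.10. Mouse has a near-identical copy, PSME2B, with a mean of 25.0 ± 4.82 (SD, n = 3), and with it added to the mouse level the log2 difference of PSME2 was 0.57. The sources used here do not give how reads that fit both copies were counted. PSME3, the nuclear PA28 gamma, averaged 245.0 ± 6.80 in pika and 132.4 ± 6.12 in mouse, for a log2 fold change of 0.88. PSME4 (PA200) was close between the species, at 83.2, 81.3 and 85.0 against 91.9, 90.5 and 85.7. PSMF1 stood at 60.2, 67.8 and 70.0 against 18.2, 20.2 and 19.2, which gave a log2 fold change of 1.73 ± 0.084 (limma adjusted p = 4.53e-08), and at 0.40 on reads not divided by length. PSME1 and PSME2, which are induced by interferon together with PSMB8 and PSMB9, were thus at 64.0 to 201.8 on average where those 2 were at 3.37 to 12.3.

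Of the assembly chaperones, which leave the finished particle, 3 of 6 tested were called higher, beside 28.7% of all tested genes. On reads not divided by length 2 of the 6 were called higher, beside 25.5%. PSMD9, a chaperone of the base, had the largest fold change of all 45 genes: it stood at 84.1, 103.8 and 89.1 in pika and at 14.3, 17.4 and 17.3 in mouse, for a log2 fold change of 2.43 ± 0.11 (limma adjusted p = 2.0e-08). Its mouse model was 7.40 times longer than the pika model, and on reads not divided by length its value was 0.64 and was not called. PSMD5, another base chaperone, stood at 118.0, 116.3 and 111.6 against 35.2, 34.0 and 30.6, which gave a log2 fold change of 1.76 ± 0.067 (limma adjusted p = 7.82e-09). PSMD10 (gankyrin), also a base chaperone, had nearly equal models and a negative value with FPKM, at 46.9, 46.8 and 45.9 in pika below 67.3, 85.7 and 65.6 in mouse, for a log2 fold change of -0.63 ± 0.098 that was not called and was 0.62 without rescaling. On reads not divided by length PSMD10 was positive as well, at 0.48, beside 0.72 for PSMD5, which was not called there. PSMG1 and PSMG2, the pair that assembles the alpha ring, had log2 fold changes of 0.73 and 0.82 and were not called. PSMG4 was called at 61.2, 46.5 and 49.7 against 33.65, 10.45 and 17.98, which gave a log2 fold change of 1.44 ± 0.33 (limma adjusted p = 0.0025), on only 33 mouse reads in all. Its partner PSMG3 was found in the mouse table only, at 1.56, 2.36 and 1.97 deposited FPKM. The mouse rows that matched the pattern and were not joined also included 4 pseudogenes, at 0 to 0.342 deposited FPKM. PSMC3IP, no subunit, was called higher at 78.9 ± 8.27 against 11.5 ± 4.05 (SD, n = 3), for a log2 fold change of 2.72 from 19 mouse reads.

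Partners of the proteasome without a PSM symbol were read from a list of 18 genes, 15 of them found in both tables and tested. Of these, 7 were called higher in pika and 0 lower (46.7%, against 28.7% of all tested genes). With median-of-ratios scaling 4 of the 15 were called higher, where 25.0% of all tested genes were. UCHL5, a deubiquitinase bound to the cap, stood at 245.6, 253.8 and 255.0 in pika and at 20.7, 17.3 and 17.8 in mouse, which gave a log2 fold change of 3.69 ± 0.072, and at 3.74 on reads not divided by length. In UCHL5 the pika level was close to that of the subunits themselves and the mouse level far below it. ADRM1, the receptor that binds UCHL5, stood at 114.5 ± 3.84 and 63.8 ± 4.75 (SD, n = 3), for a log2 fold change of 0.84 that was not called. POMP, the chaperone that matures the core, stood at 391.0, 415.3 and 430.3 against 65.4, 69.9 and 70.2, which gave a log2 fold change of 2.57 ± 0.050, with a mouse model 8.36 times longer and a value of 0.56 on reads not divided by length. USP14, the other deubiquitinase of the cap, was called at 1.04 with FPKM and at -2.13, lower in pika, on reads, with a pika model of 312 bases and a mouse model of 5974. The value on reads carries the same doubt as that of PSMC2, since a shared divisor would make the pika reads and length too low. UBE3C (1.57), a ligase on the cap, was called with both. UBLCP1 (1.02) and PITHD1 (1.04) were called in the FPKM fit and, like USP14, not with median-of-ratios scaling. UBLCP1 lost its call without the second or the third mouse library (0.99 and 0.94), PITHD1 without the first pika or the third mouse library (0.96 and 0.86), and USP14 without the second mouse library (0.98).

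Of the genes that control the proteasome genes, none was called, and their direction depended on the scale. Of 7 tested members of that list of 8, 0 were called by limma, 3 had positive and 4 negative fold changes, and all 7 had an adjusted p under 0.05. Over all tested genes 52.2% were called and 88.6% had an adjusted p under 0.05. Without rescaling all 7 were positive and 5 were called higher, where 58.3% of all tested genes were called higher. The median of the list was 1.14 there, against 1.29 over all tested genes. On reads not divided by length 1 was called higher and 1 lower, where 25.5% and 27.2% of all tested genes were. NFE2L1, the factor that raises proteasome genes when the proteasome is inhibited, stood at 235.8, 236.1 and 216.4 in pika, below 266.4, 290.3 and 269.6 in mouse, for a log2 fold change of -0.26 ± 0.049. NFE2L2, its relative in the oxidative stress response, stood at 178.2, 169.1 and 168.8 against 199.9, 186.5 and 179.9, which gave a log2 fold change of -0.13. Both factors lay slightly lower in every pika library, and both were above 1 on the log2 scale without rescaling, at 1.02 and 1.14. On reads not divided by length they were positive too, at 0.22 and 0.33. DDI2, the protease that activates NFE2L1, and NGLY1, the enzyme that removes its sugars, had log2 fold changes of 0.88 and 0.78, and DDI2 stood at -0.54 on reads. VCP, the ATPase that extracts ubiquitinated proteins, averaged 484.5 ± 7.04 in pika and 746.1 ± 15.3 in mouse, for a log2 fold change of -0.62 that was 0.67 without rescaling.

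Of 4 tested genes in the list of 6 ubiquitin genes and E1 enzymes, 2 were called higher and 0 lower. Over all tested genes these shares were 28.7% and 23.5%. RPS27A, which encodes ubiquitin fused to a ribosomal protein, stood at 1450 ± 17.7 against 602.5 ± 12.1 (SD, n = 3), for a log2 fold change of 1.27, and at 0.56 on reads not divided by length, where it was not called. UBA1, the main E1 enzyme, had a log2 fold change of -0.63, which was -0.01 on reads and 0.66 without rescaling.

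In the list of interferon signalling and class I peptide loading, the pathway that uses the peptides of the immunoproteasome, 2 of 12 tested genes (of 17 listed) were called higher and 4 lower, beside 28.7% and 23.5% of all tested genes. The counts moved with the setting: 2 higher and 7 lower with median-of-ratios scaling, 4 higher and 1 lower without rescaling, and 0 higher and 3 lower on reads not divided by length. Shares of all tested genes called higher and lower were 25.0% and 26.2%, 58.3% and 10.7%, and 25.5% and 27.2% in the same order. IFNB1 and IFNG were at 0 in all 6 libraries. TAPBP, which holds class I molecules at the peptide transporter, stood at 21.0, 22.9 and 21.5 in pika against 108.3, 114.6 and 127.3 in mouse, which gave a log2 fold change of -2.37 ± 0.077, and it was called lower on reads as well (-2.01). TAP2, one chain of the transporter, stood at 16.2 ± 2.19 against 40.7 ± 3.05 (SD, n = 3), for a log2 fold change of -1.29 that was -0.04, not called, without rescaling. B2M, the light chain of class I, stood at 623.2 ± 11.1 against 1566 ± 25.8, which gave a log2 fold change of -1.33 that became -0.24 on reads and -0.03 without rescaling. TAP1, the other chain, had a log2 fold change of -0.46, was not called and stood at 0.69 without rescaling. IFNGR1 was called lower at -1.04, stood at 0.21 without rescaling, and lost its call without the third pika or the first mouse library (both -0.99). IRF2 (1.63) was called higher, and it was not called on reads. TAPBP, TAP2, B2M and IFNGR1 were thus lower in pika in the FPKM fit where the PA28 chain PSME1 was higher and PSMB8 and PSMB9 overlapped.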

How the data were processed

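The authors deposited 1 FPKM value per gene and library, reads relative to gene length and library total. Per the submitters' processing notes, CASAVA 1.9, STAR 2.6.1a, featureCounts and edgeR 3.28.1 were used, and GRCm38, a mouse build, is listed for both species. The pika annotation and the handling of reads that fit several places are not given in the sources used here. Mouse identifiers were named from a gene table (49326 of 49585 rows), and symbols found once in each of the 2 species' tables were joined. Values were then rescaled within each library to a sum of 1000000 over joined genes. Genes with a mean deposited FPKM of at least 1 in at least 1 species were tested with limma-trend on log2(value + 1) (R 4.3.3, limma 3.58.1), two-sided, with Benjamini-Hochberg adjustment over 10348 genes. A fold change on this scale understates the change of low genes. The script was tested on simulated data.

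FPKM values were whole multiples of a step, from which whole reads, gene model lengths and library totals were worked out with a tolerance of 0.002 reads. The recovered reads added up to 95.7% to 96.4% of the totals, and where all reads of a gene share a divisor, its reads and length come out too low. The mean chi-square per gene between replicates was 1.36 to 1.55 in pika and 1.17 to 1.25 in mouse, so no file was a copy of another, which leaves repeat sequencing of 1 RNA possible. Every proteasome gene and every gene of the lists of partners, control genes, ubiquitin genes and class I genes could be named. Members and lists were chosen with earlier results of these data known. Alternatives were the scale, pseudocount, filter, variance model, gene length, a replicate block and leaving out each library. The 6 ChIP-seq samples are not analysed here. Some genes of the lists are counted and not reported by name here. Further tools: scipy 1.17.1, pandas 2.3.3, numpy 2.4.6 and Python 3.11.15.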

Additional observations from a re-analysis of the deposited data

How the results depend on the processing

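The count of 17 proteasome genes called higher became 39 on deposited FPKM without rescaling, 13 with median-of-ratios scaling, 16 without gene length and 17 to 18 when each library was left out, where PSMD4 was added without the second mouse library. The count called lower was 0 except without gene length, where it was 1 (PSMC2). Over all genes, 6029 were called higher and 1106 lower without rescaling, against 2970 and 2433. The share of all tested genes called higher was 58.3% without rescaling, 25.0% with median-of-ratios scaling and 25.5% without gene length, against 28.7%. With median-of-ratios scaling, 13 of 45 thus stood closer to the share of all genes. The median log2 fold change of the proteasome genes, 0.79, was 0.61 with median-of-ratios scaling, 2.00 without rescaling, 0.74 with no filter and 0.73 to 0.85 when each library was left out. The log2 difference of the summed level, 0.60, was 0.42, 1.89 and 0.82 with median-of-ratios scaling, without rescaling and without gene length. Without gene length the difference in the log2 ratio of PSMB8 to PSMB5 turned from 0.30 to -0.26, that of PSMB9 to PSMB6 went from -1.55 to -2.31, PSMC2 turned to -1.21, USP14 to -2.13 and PITHD1 to -0.36. IFNGR1 turned to 0.21 without rescaling. With median-of-ratios scaling PSMA1, PSMB7, PSMC2 and PSMD1 fell short of the fold for a call, at 0.93, 0.95, 0.89 and 0.88. A shared divisor of the recovered reads would make the values of PSMC2 and USP14 without gene length too low. The same doubt holds for other genes with short pika models, such as PITHD1 (429 bases), PSMB10 (432) and PSMB5 (504). The cause of these changes was not tested beyond the setting itself. Pseudocount, a filter at 5 and limma without trend changed no call among the proteasome genes tested under them.

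Replicate numbers in the titles did not pair the libraries: same-numbered pika and mouse libraries had correlations of -0.01, 0.05 and 0.01 of their deviations. With the replicate block, 17 proteasome genes were called higher and 0 lower with a median of 0.79, no call among them changed, and 2972 genes were called higher over all.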
